A study of Mus musculus with 46 samples.

Results

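H3.3 is a histone H3 variant that is placed into chromatin outside of DNA replication, by the chaperone Hira over transcribed genes and by Daxx and Atrx at silent repeats. At transcribed genes it replaces nucleosomes that are lost as the polymerase passes, so long stretches of it are known from strongly transcribed gene bodies. H3K4me3 marks active promoters, whereas H3K36me3 is laid down along transcribed gene bodies and rises towards the gene end. The long H3.3 domains of mouse embryonic fibroblasts were taken here as those peaks of the D0 H3.3 library that measured 10 kb or more from start to end. They numbered 711 of the 89727 D0 peaks (0.792%) and were chosen by their length alone, so their length, tags and fold over input in D0 are given as a description.

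ChIP-Seq was performed on cells on the way from fibroblasts to induced pluripotent stem cells (iPSCs) and on fibroblasts turned into hematopoietic cells, and 30 of 46 samples came with a peak list. All fibroblasts of the first system carried an IRES-EGFP cassette behind the Oct4 (Pou5f1) coding region, and D0 cells had received no factors. The D3, D6, D9, D12 and D16 cells had been infected with retroviral pMXs vectors for Oct4, Sox2, Klf4 and c-Myc and were collected on days 3, 6, 9, 12 and 16. D3 cells were unsorted. Sorting used Thy-1 (T), a surface protein of fibroblasts, on days 6 and 9 and SSEA-1 (S), an early pluripotency antigen, on days 12 and 16. The successful route consisted of D6T-, D9T-, D12S+ and D16S+ and the unsuccessful one of D6T+, D9T+, D12S- and D16S-, and iPSCs and the embryonic stem cell line ESD3 stood for the pluripotent state. In the other system, the MEF library came from fibroblasts cleared of hematopoietic cells, D4 from day 4 after retroviral Scl, Lmo2, Runx1 and Bmi1 (SLBR), and cKit+ and cKit- from the sorted product, with inactivated OP9 stromal cells as co-culture. With 1 library per group there was no replicate error to hold a difference against, and the 95% Wilson intervals below cover counting error only. The sorted fractions are mixtures, and fewer cells with a domain cannot be told apart from a weaker domain in each cell.

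Depth was 27.0 M tags in D0, with 19.1% of tags in peaks, and lay between 18.7 M (D16S+) and 91.8 M (cKit+) in the other H3.3 libraries. The share of tags in peaks was 37.2% in D4, 22.0% in D12S-, 6.93% in D12S+, 4.88% in D16S+, 2.31% in cKit- and 1.65% in cKit+, and these values stand beside the results they touch. Fibroblast identity of D0 was checked with marker genes. An H3.3 peak lay in 14 of 15 fibroblast markers, with a median of 68.3% of the gene covered, and in 4 of 10 pluripotency, 5 of 7 endothelial, 5 of 7 epithelial, 4 of 6 hematopoietic, 3 of 4 neural and 0 of 6 skeletal muscle markers, with medians between 0 and 9.15%. Of the 15 fibroblast markers, 7 (Col1a1, Col1a2, Col3a1, Fn1, Vim, Acta2 and Prrx1) overlapped a long domain, while none of the pluripotency, endothelial, epithelial, hematopoietic, skeletal muscle or neural markers did.

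The domains held 11 of the 130 Mb under D0 peaks (8.43%) and 9.90% of the tags in peaks. Their median length was 13.3 kb (quartiles 11.2 and 16.8 kb), of which 103 reached 20 kb and 20 reached 30 kb, and the longest, over Hmga2, measured 125 kb. The shortest domain measured 10002 bp, and the longest peak left out measured 9992 bp. Per kb, the domains had a median normalized tag count of 16.6, compared with 15.4 in D0 peaks of 5 to 10 kb and 13.6 over all D0 peaks. The fold over input had a median of 4.62 and ranged from 3.16 to 7.89.

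Among regulatory RNAs, 26 of the 529 annotated miRNA genes (4.91%) lay inside 17 of the domains, and the 5 to 10 kb peaks, which cover more sequence, held 13. The domain over Mir29a and Mir29b-1 was the eighth longest of all. Mature sequences from RefSeq (annotated there on GRCm38.p6) matched 24 of the 26 genes, and they are shown for 3 of the 5 seeds that recur within or between domains and for miR-31 and miR-21, whose domains had the lowest and the highest cover in D3 among the 17. Capitals mark the seed, bases 2 to 8.
miR-29a-3p: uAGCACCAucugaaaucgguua
miR-29b-3p: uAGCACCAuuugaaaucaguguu
let-7a-5p: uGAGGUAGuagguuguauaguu
let-7b-5p: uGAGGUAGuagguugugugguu
let-7c-5p: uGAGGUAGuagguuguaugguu
let-7d-5p: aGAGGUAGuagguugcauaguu
miR-27a-3p: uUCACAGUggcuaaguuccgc
miR-27b-3p: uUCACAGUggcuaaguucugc
miR-31-5p: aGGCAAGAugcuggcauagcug
miR-21a-5p: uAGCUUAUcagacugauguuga
The let-7 seed was shared by 4 genes in 2 domains, on chromosomes 13 and 15. The seed of miR-27a and miR-27b was likewise held by domains on chromosomes 8 and 13. miR-29 is known to repress collagen mRNAs and let-7 to repress Hmga2, which is itself the host of the longest domain.

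To show the DNA under the domains, windows of 300 bases without exons were read from build mm9, plus strand. Each lay at the place with the most matches to TGANTCA. This pattern includes the AP-1 sites TGACTCA and TGAGTCA but also TGAATCA and TGATTCA. They come from the longest domains (Hmga2, Tnc and Myh9), from the longest domain that was kept in D3 and all unsuccessful fractions and was below 50% in D12S+, D16S+ and iPSCs (Sept9) and from the longest kept in every reprogramming library (Pkm2). Capitals mark TGANTCA.
Hmga2: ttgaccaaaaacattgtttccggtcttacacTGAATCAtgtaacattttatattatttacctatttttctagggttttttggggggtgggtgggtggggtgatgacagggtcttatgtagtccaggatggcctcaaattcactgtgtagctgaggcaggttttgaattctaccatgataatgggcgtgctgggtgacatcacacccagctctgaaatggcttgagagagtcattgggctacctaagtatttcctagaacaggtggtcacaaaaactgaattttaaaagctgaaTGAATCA
Tnc: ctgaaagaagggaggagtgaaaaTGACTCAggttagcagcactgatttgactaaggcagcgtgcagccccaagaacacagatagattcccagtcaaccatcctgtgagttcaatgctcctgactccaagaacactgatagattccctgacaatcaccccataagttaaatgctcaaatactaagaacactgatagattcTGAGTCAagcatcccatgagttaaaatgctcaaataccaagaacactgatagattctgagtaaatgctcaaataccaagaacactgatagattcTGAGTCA
Myh9: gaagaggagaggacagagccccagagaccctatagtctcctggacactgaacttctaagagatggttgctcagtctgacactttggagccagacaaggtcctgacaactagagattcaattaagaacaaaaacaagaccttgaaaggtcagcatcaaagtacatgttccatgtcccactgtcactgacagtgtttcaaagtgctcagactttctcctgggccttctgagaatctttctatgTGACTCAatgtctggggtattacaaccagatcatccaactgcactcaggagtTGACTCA
Sept9: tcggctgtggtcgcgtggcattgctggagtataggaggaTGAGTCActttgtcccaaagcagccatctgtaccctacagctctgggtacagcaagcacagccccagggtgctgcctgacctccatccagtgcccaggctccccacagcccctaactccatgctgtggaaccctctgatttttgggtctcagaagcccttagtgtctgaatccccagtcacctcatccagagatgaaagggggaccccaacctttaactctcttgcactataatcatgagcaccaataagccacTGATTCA
Pkm2: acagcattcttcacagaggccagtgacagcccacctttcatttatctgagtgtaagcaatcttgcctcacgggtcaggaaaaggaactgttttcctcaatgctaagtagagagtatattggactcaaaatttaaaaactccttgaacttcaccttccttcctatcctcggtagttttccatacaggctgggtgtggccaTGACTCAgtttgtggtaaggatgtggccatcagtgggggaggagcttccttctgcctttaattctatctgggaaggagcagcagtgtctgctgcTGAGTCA
The windows lay at chr10:119817124-119817423 (intron of Hmga2), chr4:63645767-63646066 (intron of Tnc), chr15:77616110-77616409 (intron of Myh9), chr11:117166996-117167295 (intron of Sept9) and chr9:59501132-59501431 (between genes, upstream of Pkm2). TGANTCA, which reads the same on both strands, occurred 0.319 times per kb in the domains, 0.384 in 5 to 10 kb peaks, 0.477 in peaks under 5 kb and 0.279 in sequence flanking the domains. At least 1 match was held by 8.82% of the 300-base windows of the domains and by 12.9% of those of peaks under 5 kb, so this motif was sparser in long domains than in short peaks. GGAATG, the TEAD motif, with its reverse complement CATTCC, occurred 0.578 times per kb in domains and 0.622 in peaks under 5 kb, and the E-box CANNTG 5.93 and 5.84 times. The octamer ATGCAAAT, searched with its reverse complement, occurred 0.0408 times per kb in domains and 0.0494 in their flanks. GC content was 47.8% in the domains and 46.6% in the flanks, and CpG density was 14.0 per kb in both. Matches were counted with overlaps allowed and describe the letters only.

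Protein-coding genes held 80.7% of the base pairs of the domains, compared with 67.7% of all D0 peak base pairs. Exons held 18.8% and 10.3%, respectively. At least 1 protein-coding gene was touched by 693 domains, and the gene with the most base pairs of a domain was taken as its host, which gave 570 hosts. A further 18 domains touched none, of which Neat1 (the RNA scaffold of paraspeckles) and Malat1, its neighbour on chromosome 19, are long noncoding RNAs, and 6 held no annotated gene of any kind. Of the 711 domains, 2 lay on the X chromosome and 86 on chromosome 11. The share of all D0 peaks on these chromosomes was not counted, so the counts are a description only. Counted by gene name, 89 had 2 or more domains, and a name can stand for more than 1 annotated record. Uck2, for example, had 30.9 kb of domain sequence in 4 domains beside a listed record of 0.093 kb. Among the genes with the most domain sequence were Sept9 (97.2 kb in 4 domains), Col5a1 (92.2 kb in 6 domains), Nedd4 (81.5 kb in 4) and Lrp1 (81.2 kb in 3). Actn1 (77.0 kb in 2), Fndc3b (72.5 kb in 5), Cd44 (72.4 kb in 3) and Adam19 (70.7 kb in 4) had less. Neighbouring domains of 1 gene share their host and are not independent.

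Far more domains held the end of their host gene alone than its start alone. Position was scored for the host only. Since 265 domains touched 2 or more protein-coding genes, a domain at the end of its host may also overlap another gene. The host's annotated end, but not its start, lay inside 389 domains (54.7%), whereas 17 (2.39%) held the start but not the end. A further 47 (6.61%) held the whole gene, and 240 (33.8%) lay inside it without either. Among D0 peaks of 5 to 10 kb the gene end was held by 29.4% and the start by 6.15%, and among peaks of 2 to 5 kb by 7.34% and 6.93%. The longer the D0 peak, the more often it ran across a gene end and the less often across a start alone. Long peaks of D0 H3K36me3 had the same orientation (45% of 2977 at the end and 0.168% at the start), and long peaks of D0 H3K4me3 the opposite one (2.15% and 62.4% of 93). Long H3.3 peaks of MEF ran across the end in 50.5% of 93 and across the start in 2.15%, whereas the 221 long iPSC peaks did so in 33.5% and 14.9%.

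In the 389 domains at gene ends, the upstream edge stood a median of 11.1 kb after the gene start (quartiles 3.35 and 26.0 kb), and in 39 of them within 1 kb of it. The domains ran on past the gene end by a median of 5.30 kb (quartiles 3.65 and 7.06 kb) and at most 19.7 kb. H3K36me3 in D0 covered on average 89.2% of the last 2 kb of the gene, 67.8% of the first 2 kb after it and 38.8% of the next 2 kb. These domains were chosen because the D0 H3.3 peak runs across the gene end, so H3.3 beyond it is part of the choice. In every H3.3 library but D4, the mean cover of these domains was highest in one of the bins on either side of the gene end. MEF covered 72.9% of the first 2 kb after the end and 45% of the bin 4 to 6 kb upstream of it. D16S+ covered 35.7% and 18.1% of the same bins, and iPSCs 54.9% and 36.8%. Cover was also lower at the edges of a domain than in its middle: in D3 it was 54.4% in the first and 53.3% in the last of 20 equal bins along these domains, and 84.3% in the twelfth. The gene end mostly lay away from the edges, and the part of each was not tested.

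**Figure D1:**
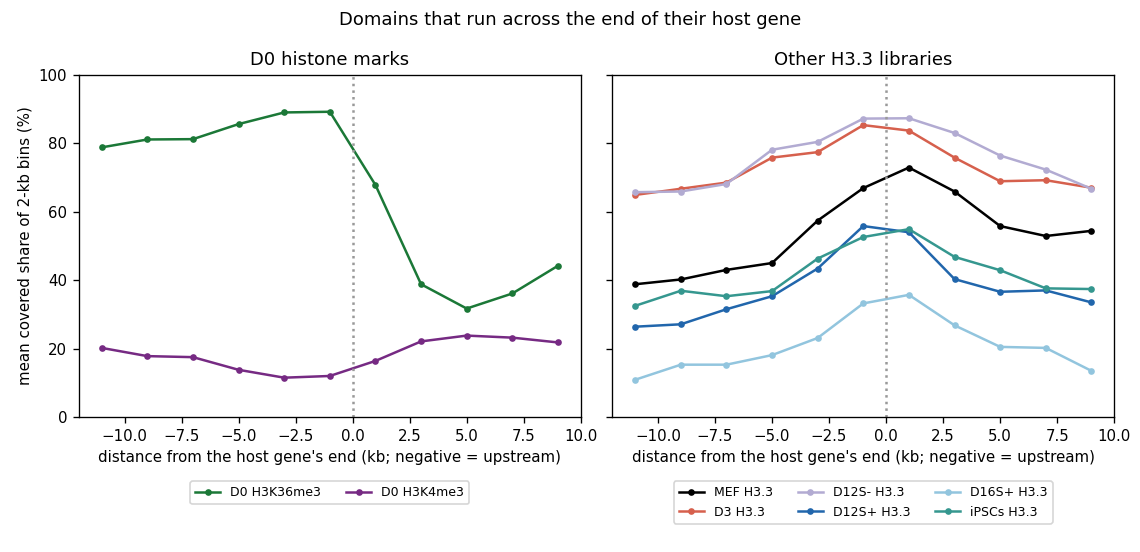
Mean share of 2-kb bins covered by peaks, in percent, against the distance in kb from the end of the host gene (0, dotted; negative values lie in the gene), for the 389 domains that run across a gene end; a bin counts only where it lies inside the domain (29 to 381 domains). Left, D0 H3K36me3 (89.2% just before the end, 38.8% in the bin 2 to 4 kb after it) and D0 H3K4me3; right, H3.3 of 6 libraries, which all peak within 2 kb of the end.

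Both marks were seen in D0 over most domains. H3K36me3 covered at least 50% of 453 domains (63.7%, interval 60.1 to 67.2%), while 22.5% of all D0 peaks and 40.5% of the 5 to 10 kb peaks were covered to that extent. By base pairs, it covered 59.5% of the domains and 27.5% of all D0 peaks. H3K4me3 overlapped 584 domains by 1 bp or more (82.1%, interval 79.2 to 84.8%), and 28.2% of all D0 peaks. A long region meets a mark more easily, and by base pairs H3K4me3 covered 23.9% of the domains and 20.2% of all D0 peaks. Both marks together, with H3K36me3 over at least 50%, were found at 342 domains (48.1%), and neither at 2. H3K36me3 covered at least 50% of each in 81.0% of the domains at gene ends (interval 76.8 to 84.6%) and in 45% of those inside genes (38.8 to 51.3%). H3K4me3 overlapped 83.3% of the domains inside genes (78.1 to 87.5%) and 78.4% of those at gene ends (74.1 to 82.2%).

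The question how far a long D0 peak is found again in similar cells was asked of MEF, the other library of unconverted fibroblasts. A domain was called kept where peaks of the other library covered at least 50% of it. In MEF 395 domains were kept (55.6%, interval 51.9 to 59.2%), with 17.5% of all D0 peaks and 38.4% of those of 5 to 10 kb. The median domain was covered to 53.0%, in 3 pieces, and 4 domains had no MEF peak at all. Since the domains were chosen as the longest peaks of D0, shorter peaks elsewhere are partly built into the choice. MEF had 7.64% of its tags in peaks, and with peaks of at least 4-fold over input alone it kept 0.141% of the domains and iPSCs 0.844%, against 41.9% in D3, so that levels of different libraries depend on this limit.

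On day 3 after infection 544 domains were kept (76.5%, interval 73.3 to 79.5%; all D0 peaks 22.7%), with a median cover of 70.4% in 3 pieces. Along the successful route the share kept was 73.0% in D6T- (all D0 peaks 30.6%) and 58.4% in D9T- (21.9%). It then stood at 29.4% in D12S+ (9.85%) and 9.99% in D16S+ (4.67%). In iPSCs it was 38.4% (interval 34.9 to 42.0%; all D0 peaks 18.6%), and in ESD3 13.2% (7.49%). On the unsuccessful route 79.2% were kept in D6T+ (21.5%) and 63.7% in D9T+ (21.1%), followed by 78.9% in D12S- (34.6%) and 59.6% in D16S- (interval 56.0 to 63.2%; 19.8%). The longest single stretch of a domain that remained covered had a median of 5.42 kb in D3, 8.13 kb in D6T-, 2.10 kb in D12S+, 0.795 kb in D16S+ and 2.43 kb in iPSCs. In the same order, 2, 17, 90, 179 and 107 domains had no peak at all, while a peak overlapped 41.3, 43.4, 21.4, 13.4 and 30% of all D0 peaks, which are shorter, and 97.1, 91.4, 72.0, 52.6 and 73.1% of those of 5 to 10 kb.

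**Figure D2:**
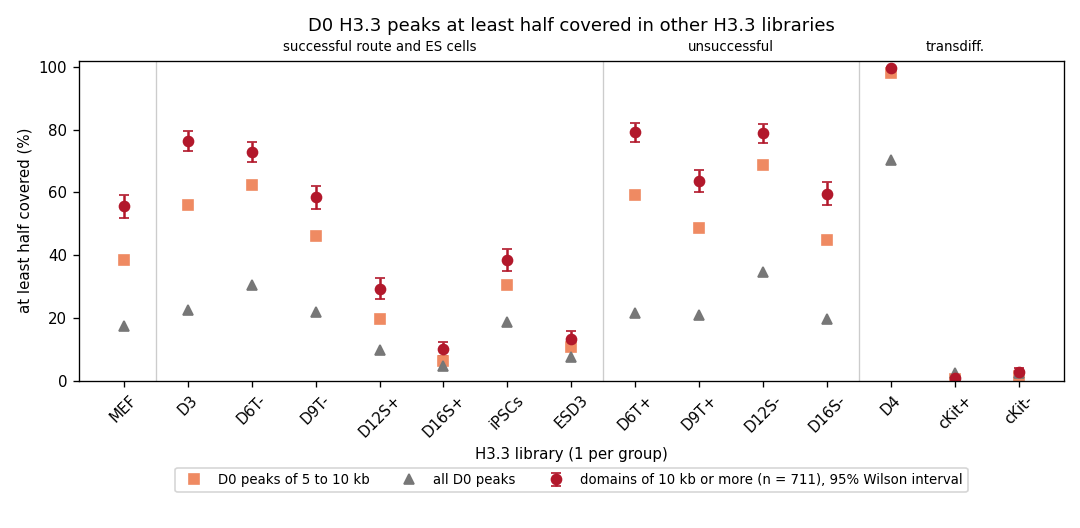
Share of D0 H3.3 peaks covered to at least 50% by the peaks of each other H3.3 library, in percent, for the 711 domains (circles, with 95% Wilson intervals), D0 peaks of 5 to 10 kb (squares) and all D0 peaks (triangles). The domains lie above both other classes in every library except cKit+, where they lie below all D0 peaks, and all 3 classes lie near 0 in cKit+ and cKit-. The domains fall from 76.5% in D3 to 9.99% in D16S+, while D12S- stands at 78.9%.

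The routes differed less on days 6 and 9 than on days 12 and 16. The successful fraction minus the unsuccessful fraction of the same day was -6.19, -5.34, -49.5 and -49.6 percentage points of domains kept, with a mean of -27.7 and an SD of 25.3 over the 4 days. Over all D0 peaks it was 9.08, 0.875, -24.8 and -15.1 points, with a mean of -7.48 and an SD of 15.3, and over peaks of 5 to 10 kb 3.19, -2.62, -49.0 and -38.6. The sign on day 6 was thus opposite in both of these classes, and the gap on day 12 was not particular to the domains. On day 12, D12S- covered more of the domain than D12S+ in 695 of 711, and the reverse held in 2. On day 6 the median difference in covered share was 6.08 points in favour of D6T-, although fewer domains passed the limit there. The tags in peaks moved with the later gaps: 6.93% in D12S+ against 22.0% in D12S-, and 4.88% in D16S+ against 12.2% in D16S-. When each library was limited to its 25637 highest-scoring peaks, the differences were -4.50, -6.61, -46.3 and -44.6 points. The score counts the tags of a whole peak, so this limit evens out the number of peaks and not the base pairs under them. With peaks of at least 4-fold over input, day 9 stood at 16.3% in D9T- and 39.4% in D9T+, a difference of -23.1 points.

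For the order of breakdown, each domain was given the first day from which it stayed below 50% covered up to day 16. On the successful route 121 domains broke down at day 3, 65 at day 6, 107 at day 9, 206 at day 12 and 141 at day 16, and 71 were kept to day 16. On the unsuccessful route the numbers were 71, 26, 40, 13 and 137, and 424 were kept. Breakdown came earlier on the successful route for 534 domains (75.1%, interval 71.8 to 78.1%; all D0 peaks 39%, peaks of 5 to 10 kb 69.3%) and earlier on the unsuccessful route for 7 (0.985%; 8.24 and 2.24%). It fell on the same day for 101, of which 69 broke down at day 3, where both routes share the D3 library, and another 69 were not broken down by day 16 on either route. Among those kept in D3, it came earlier on the successful route for 80.5% of the domains, 79.9% of the peaks of 5 to 10 kb and 61.5% of all D0 peaks, so the order of the routes was not particular to the domains. The numbers broken down differed most between the routes at day 12 (206 and 13) and were close at day 16 (141 and 137). On days 6 and 9 they were also higher on the successful route. The day 3 numbers (121 and 71) differ only through later days, since both routes share the D3 library. The domains that broke down at day 3 on the successful route lay inside genes in 62.8% and at gene ends in 31.4%, whereas those kept to day 16 lay inside genes in 4.23% and at gene ends in 81.7%. H3K36me3 in D0 covered at least 50% in 44.6% of the first and 76.1% of the second group. Median lengths were 12.5 and 13.3 kb, so early and late domains were of similar length. MEF kept 41.3% of the day 3 group and 76.1% of the lasting group, so part of the day 3 group was below 50% in unconverted fibroblasts too.

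**Figure D3:**
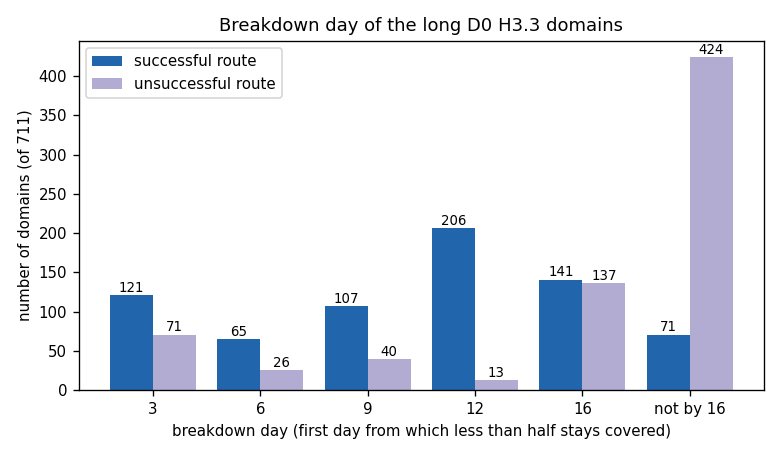
Number of the 711 domains by breakdown day, the first day from which less than 50% of the domain stayed covered up to day 16, on the successful (dark) and unsuccessful (light) routes. The bars rise to 206 at day 12 on the successful route, where the unsuccessful route has 13, and 424 domains were never broken down by day 16 on the latter.

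Of the domains hosted by genes of the extracellular matrix, none was kept in D12S+, D16S+ or iPSCs, and fewer were kept than of all domains in every reprogramming library. Of 41 genes in the collagens and matrix list, 15 overlapped a domain (36.6%, compared with 3.98% of all 22238 protein-coding genes), and they hosted 24 domains. MEF kept 19 of the 24, D3 10, D6T- 6, D9T- 3 and D12S+, D16S+ and iPSCs 0, while the unsuccessful fractions kept 7, 8, 8 and 3. As a share this was 41.7% in D3 and 25% in D6T-, compared with 76.5 and 73.0% of all domains, and 33.3% in D12S-, compared with 78.9%. On the successful route 12 broke down at day 3, 6 at day 6, 3 at day 9 and 3 at day 12, and on the unsuccessful route 10, 4, 0 and 2, followed by 5 at day 16 and 3 not by then. Col5a1 alone supplied 6 of the 24. Col1a2, a chain of type I collagen, had a domain of 35.4 kb, which was covered to 65.0% in MEF, 59.4% in D3, 2.82% in D6T- and 0 from D9T- to iPSCs. On the unsuccessful route its cover was 47.9%, 25.9%, 8.55% and 1.41%. Col5a1, a chain of type V collagen, hosted 6 domains, of which MEF covered between 51.7 and 83.9% and D6T- between 0 and 3.11%. Its 26.2 kb domain fell to 6.70% already in D3 and was wholly under H3K36me3 in D0 (100%). Tnc, the matrix glycoprotein tenascin C, had the second longest domain of all (91.9 kb), covered to 60.8% in MEF, 28.5% in D3, 31.2% in D6T+, 1.67% in D6T-, 0.932% in D12S- and 0 in D16S-. The cover of the Tnc and Col5a1 domains was thus low in D12S- and D16S- as well. Fibronectin (Fn1, 41.5 kb) had 66.0% in MEF, 58.8% in D3, 49.1% in D12S-, 13.6% in D12S+ and 20.8% in iPSCs. Sparc (27.7 kb), Mmp14 (22.0 kb) and Serpinh1 (21.2 kb), a matricellular protein, a membrane protease and the collagen chaperone, were the matrix domains with the highest cover in D16S-, at 72.4, 68.1 and 73.0%.

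Domains of cytoskeletal genes were kept about as often as all domains or less often in the reprogramming libraries other than D3 and D6T+, and more often in those 2 and in MEF. The cytoskeleton and contraction list had a domain at 25 of 37 genes (67.6%), and 24 of these hosted 36 domains. MEF kept 29 of the 36, D3 33, D6T- 25, D9T- 18, D12S+ 7, D16S+ 0 and iPSCs 10, and the unsuccessful fractions kept 31, 21, 28 and 20. The shares were 80.6% in MEF, 91.7% in D3 and 86.1% in D6T+, compared with 55.6, 76.5 and 79.2% of all domains. They were 69.4% in D6T-, 19.4% in D12S+ and 27.8% in iPSCs, compared with 73.0, 29.4 and 38.4%. Myh9, the heavy chain of nonmuscle myosin, had a domain of 90.7 kb. Its cover was 92.6% in MEF, 78.1% in D3 and 68.6% in D6T-. It went from 46.9% in D9T- to 34.1% in D12S+ and 13.1% in D16S+, and stood at 65.3% in iPSCs. On the other route it was 75.8, 60.9, 90.1 and 73.1%. Lasp1 (43.2 kb), an actin-binding adaptor, likewise stood at 23.8% in D16S+ and 83.2% in iPSCs. Actn1, encoding an actin cross-linker, hosted domains of 45.1 and 42.7 kb with 82.0 and 82.3% in MEF and 51.6 and 55.5% in D3. D6T- covered 16.7 and 42.6% of them, and D6T+ 37.8 and 61.9%. D16S+ was at 6.93 and 9.87% and iPSCs at 16.8 and 48.2%, so that the domains of 1 gene differed. The related gene Actn4 hosted 3 domains with 60.6 to 86.9% in iPSCs. The smooth muscle genes Acta2, with 76.3% in MEF, and Tagln, in a domain hosted by Pcsk7 with 77.9%, were at 0 in D12S+, D16S+ and iPSCs. Vim, encoding vimentin, had 100% in D9T- and D12S-, 53.0% in D12S+ and 6.97% in iPSCs.

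The remaining lists held fewer domains. The integrins and adhesion list had 7 of 26 genes with a domain (26.9%) and 12 domains, of which MEF kept 5, D3 10, D12S+ 0 and D12S- 10. These were 41.7, 83.3, 0 and 83.3%, compared with 55.6, 76.5, 29.4 and 78.9% of all domains. Lamb1, encoding a laminin chain, had the fourth longest domain (57.5 kb), covered to 96.0% by H3K36me3 in D0, to 67.3% in D3 and to 0.869% in iPSCs, but only to 21.3% in MEF. Cd44, the hyaluronan receptor, hosted 3 domains that D12S- covered by 84.5 to 92.8% and D12S+ by 0 to 5.54%. Of 22 genes of the TGF-beta pathway, 4 had a domain (18.2%): Tgfb1, the inhibitor Smad7, the corepressor Ski and the protease Bmp1. Smad7 had 100% in MEF, 78.2% in D3, 34.9% in D12S+ and 21.7% in iPSCs. Of 38 genes of the MAPK cascade and its receptors, 6 had a domain (15.8%), and the 7 hosted domains were all kept in D6T+ and D12S- and none of them in D12S+ or iPSCs. Dusp4, a phosphatase of MAP kinases, had 88.3% in D12S-, 11.9% in D12S+ and 3.37% in iPSCs. Of 12 AP-1 genes, 3 had a domain (25%). Fosl1 and Fosl2 had 24.3 and 8.16% in D12S+, compared with 88.1 and 83.9% in D12S-, whereas the domain with Junb, hosted by Prdx2, had 91.8% in D12S+.

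Among mesenchymal transcription factors, 8 of 44 genes had a domain (18.2%) and hosted 12, of which D6T+ kept 10, D6T- 7, D12S- 6 and D12S+ 0. These were 83.3, 58.3, 50 and 0%, compared with 79.2, 73.0, 78.9 and 29.4% of all domains. Twist2 hosted 2 domains, of 25.3 and 18.7 kb. D3 covered 5.92 and 22.7% of them, D6T- 1.97 and 17.0% and D6T+ 53.3 and 58.8%. In D12S- their cover was down to 1.97 and 23.7%. Ets1 (17.3 kb) had 88.9% in MEF, 29.4% in D3, 28.2% in D6T- and 73.9% in D6T+. Over the list there was no common order, since 6 of the 12 domains had higher cover in D6T- and 6 in D6T+, and the medians were 61.2 and 56.0%. The longer Elk3 domain and Nfix, for example, had 69.7% each in D6T- and 44.2 and 50.7% in D6T+. Of 33 pluripotency genes 1 had a domain (3.03%), Trim28, a corepressor that is widely expressed, and it was covered to 100% in iPSCs. No gene of the epithelial (0 of 21) or hematopoietic (0 of 18) list had one. The housekeeping list had 5 of 20 genes (25%), and its 4 hosted domains were kept in every reprogramming library but D16S+, which kept 2, and ESD3, which kept 3.

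**Figure D4:**
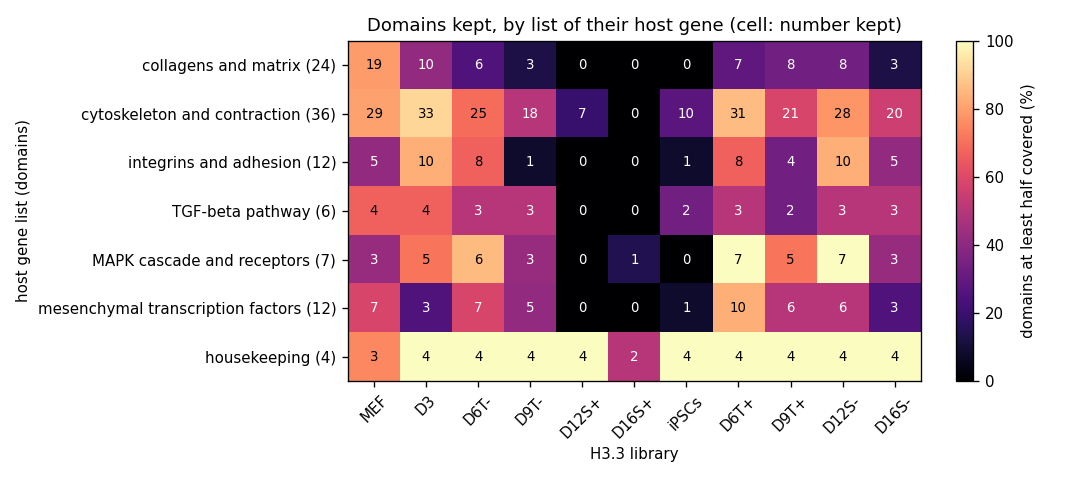
Domains grouped by the list of their host gene, for lists that host 4 or more (number of domains in brackets). The colour gives the percent of the list's domains that were at least 50% covered in MEF and in the reprogramming libraries up to D16S-, and the cell gives their number. Matrix domains go from 19 of 24 in MEF to 6 in D6T- and 0 in D12S+, whereas cytoskeletal domains go from 29 of 36 to 25 and 7, and all 4 housekeeping domains are kept in D12S+.

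A small group of domains was kept throughout. In all 11 other reprogramming libraries 46 domains (6.47%, interval 4.89 to 8.52%; all D0 peaks 0.532%, peaks of 5 to 10 kb 3.3%) were at least 50% covered. Their hosts included genes of translation (Eef1g, Eef1a1, Rpl3 and Rps3) and of nucleolar proteins (Npm1 and Ncl). Genes of RNA processing (Sfpq, Srsf3, Hnrnpl, Hnrnpa2b1 and Tardbp) and glycolysis (Pkm2, Eno1 and Tpi1) were also among them. All these names were chosen after their values were seen. The Pkm2 domain (28.3 kb), over the pyruvate kinase gene, had 83.9% in D16S+ and 87.1% in iPSCs. Srsf3 (16.8 kb), a splicing factor, had between 79.7 and 100%. The gene end lay in 82.6% of this group, compared with 54.7% of all domains, and H3K36me3 covered at least 50% in 76.1%, compared with 63.7%. Median length was 13.2 kb, close to the 13.3 kb of all domains. The Neat1 domain (42.6 kb) was at least 50% covered in every reprogramming library but ESD3 (49.5%), with 57.7% in D16S+ and 71.9% in iPSCs.

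A larger group separated the routes. In D3 and all 4 unsuccessful fractions, but not in D12S+, D16S+ or iPSCs, 108 domains (15.2%, interval 12.7 to 18%; all D0 peaks 1.37%, peaks of 5 to 10 kb 7.59%) were kept. The pattern kept in D3 and the successful fractions and below 50% in D12S- and D16S- was met by 0 (upper limit 0.537%) and by 0.00557% of all D0 peaks, but it requires a domain kept in D16S+, of which there were 71, so a count near 0 was largely set by that library. The longest of the 108 lay over Sept9, a cytoskeletal GTPase, with 88.6% in D12S-, 39.2% in D12S+ and 38.6% in iPSCs. The Mir29a and Mir29b-1 domain (42.9 kb, chr6:30999466-31042415) had 90.2% in MEF, 78.9% in D3, 96.7% in D6T- and 86.8% in D9T-. It then stood at 24.2% in D12S+, 10.0% in D16S+, 7.22% in iPSCs and 2.02% in ESD3, whereas the unsuccessful fractions had 93.9, 100, 100 and 95.6%. Capn2 (32.9 kb), encoding a calpain protease, had 97.9% in D12S- and 47.6% in D12S+, and Plekho2 (32.6 kb) 79.2 and 15.9%. Cd44 (29.8 kb) completed the 5 longest, with the values given above. Breakdown at day 3 on the successful route in a domain kept in MEF was met by 50 domains (7.03%; all D0 peaks 7.08%). The longest lay over Tnc, then Lrp1 (36 kb, an endocytic receptor) with 52.4% in MEF and 44.6% in D3, and Pmepa1 (29.7 kb, a target of TGF-beta signalling) with 76.9 and 44.1%. Timp2 (25.4 kb), an inhibitor of matrix proteases, had 66.0 and 47.4%, so that these 3 lay little below the limit in D3, and D6T- covered 34.4, 1.68 and 17.0% of them.

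**Figure D5:**
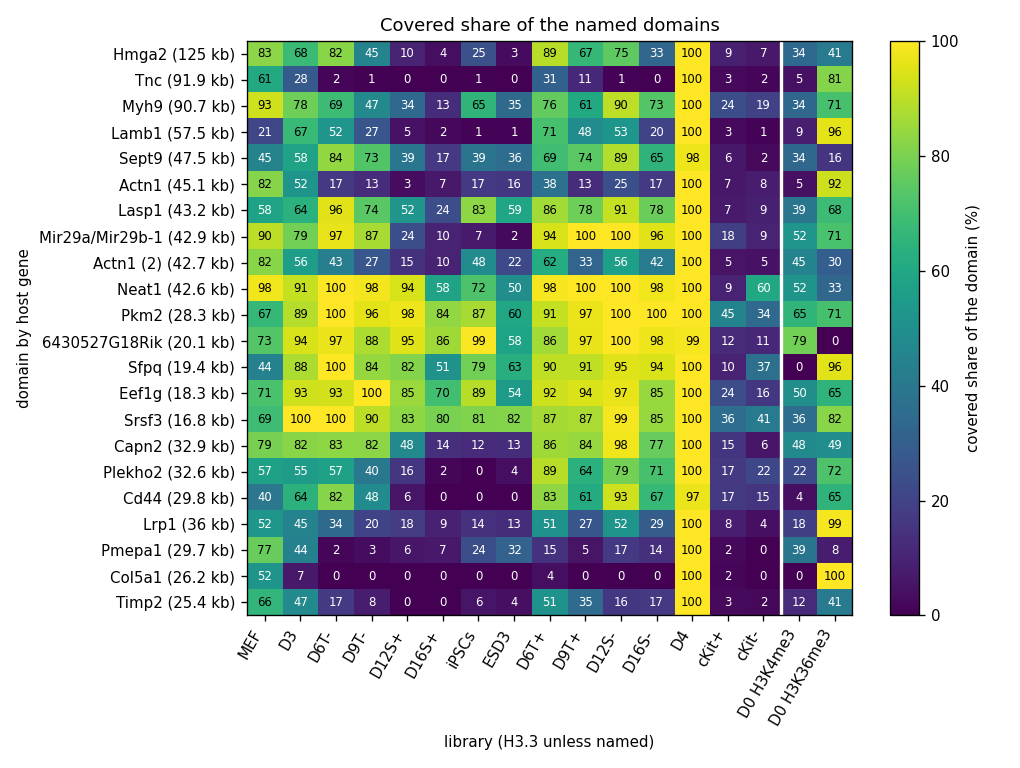
Covered share, in percent, of 22 named domains (rows, by host gene with the length in kb) in 15 other H3.3 libraries and under D0 H3K4me3 and H3K36me3 (columns, right of the white line); colour and number give the same value. Tnc and Col5a1 are near 0 from D6T- to ESD3, Pkm2 to Srsf3 stay above 50% from D3 to ESD3, and Mir29a/Mir29b-1 drops in D12S+ but not in D12S-.

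In the domains with miRNA genes, 14 of the 17 were kept in D3 and D12S-, 12 in MEF and 5 in D12S+ and iPSCs. These shares, 82.4% in D3 and D12S-, 70.6% in MEF and 29.4% in D12S+ and iPSCs, were close to those of all domains (76.5, 78.9, 55.6, 29.4 and 38.4%) or moderately above or below them. The domain of Mir23a, Mir27a and Mir24-2 (20.4 kb) had 80.8% in MEF and 19.8% in iPSCs, and that of Mir23b and Mir27b (19.0 kb) 79.2 and 19.7%. The domain of Mirlet7c-2 and Mirlet7b (11.6 kb) had 73.7% in MEF, 98.7% in D12S-, 49.3% in D12S+ and 0 in iPSCs, while that of Mirlet7d and Mirlet7a-1 (15.7 kb) had 47.7, 95.8, 31.9 and 30.2%. The Mir21 domain (11.2 kb), hosted by Vmp1, had 100% in D3 and 73.3% in iPSCs. The Mir31 domain (19.3 kb) had 5.18% in MEF and 20.4% in D3, but 67.9% in D6T+ and 43.9% in D9T+, compared with 3.25% in D6T- and 0 in D9T-. Its cover was then low on the unsuccessful route too, at 2.59% in D12S- and 3.42% in D16S-. Hmga2, an architectural chromatin protein and a let-7 target, had 82.8% in MEF, 68.1% in D3 and 82.3% in D6T-. D9T- had 44.7%, D12S+ 9.79% and iPSCs 24.9%, compared with 89.4, 66.7, 75.1 and 33.2% on the unsuccessful route.

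The iPSCs kept more domains than D16S+, whereas ESD3, the other pluripotent library, was close to D16S+ (13.2 and 9.99%). Below 50% in D16S+ but kept in iPSCs were 206 domains (29.0%; all D0 peaks 15.1%, peaks of 5 to 10 kb 24.9%), among them Myh9, Lasp1 and Lmna, while 4 showed the opposite. Of the 206, 169 were below 50% in ESD3, where Myh9 had 34.7% and Lmna 19.6%. The share of all D0 peaks kept was also higher in iPSCs than in D16S+ (18.6 and 4.67%). D16S+ had 4.88% of its tags in peaks, ESD3 7.40% and iPSCs 14.0%, at 18.7, 21.6 and 41.2 M tags. The lower cover of D16S+ and ESD3 thus came with fewer called peaks, and the part of this in the differences was not tested. In all of D12S+, D16S+ and iPSCs, 398 domains (56.0%; all D0 peaks 77%) were below 50%, and 47 (6.61%; all D0 peaks 59.8%) had no peak in any of these or in ESD3. The hosts of the 47 included Col1a2, Col3a1, Fbn1, Twist2, Prrx1, Acta2 and Flna, names that were chosen after their values were seen. Further domains of Fbn1 and Prrx1 held peaks in D12S+ and were not among the 47. Other fibroblast markers had cover in iPSCs, with 14.7% for Col1a1, 20.8% for the longer Fn1 domain and 6.97% for Vim.

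In transdifferentiation, D4 kept 708 domains (99.6%, interval 98.8 to 99.9%), with 70.3% of all D0 peaks. Of the 711, 648 lay under a D4 peak longer than the domain, whose median length was 27.7 kb, 1.82 times that of the domain. D4 had 37.2% of its tags in peaks and 267 Mb under peaks, and the part of this in the cover was not tested. It also kept 98.2% of the D0 peaks of 5 to 10 kb and 60% of those of 0.5 to 1 kb. The Lamb1 domain had 21.3% in MEF and 99.7% in D4. The sorted cells kept almost none: 6 domains in cKit+ (0.844%, interval 0.387 to 1.83%; all D0 peaks 2.53%) and 19 in cKit- (2.67%, interval 1.72 to 4.14%; all D0 peaks 2.64%). These libraries had 1.65 and 2.31% of their tags in peaks, and 574 and 486 domains still held a peak in them, while 12.9 and 11.5% of all D0 peaks and 58.2 and 48.0% of those of 5 to 10 kb overlapped one. Long domains were thus kept less often than all D0 peaks in cKit+ and about as often in cKit-, unlike in the reprogramming libraries. Of the 5 to 10 kb peaks, 0.645% were kept in cKit+ and 1.67% in cKit-. Among the named domains, Neat1 had 59.8% in cKit- and 9.43% in cKit+, and Pkm2 had 34.2 and 45.3%.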

How the data were processed

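Peak lists of 30 ChIP-Seq libraries were used, and the 16 input libraries only through the values that each peak carries. Per the labels' processing notes and the file headers, the authors mapped reads to mm9 with STAR and called peaks for each library with HOMER findPeaks in histone style (peak size 500, minimum distance 1000), and replicates were not pooled; versions are not given in the sources used here. The peak score is a signal, the normalized tag count per 10 M tags, and the fold over input is a ratio (at least 2 for H3.3 and 4 for the other marks), both as deposited. The authors' p-values, deposited for every peak, were not used here.

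Domains were the D0 H3.3 peaks of 10 kb or more. Covered share was the base pairs of a domain under merged peaks of another library, and a domain was kept at a share of 0.5. Genes came from GENCODE vM1 on NCBIM37, the assembly of mm9, and sequence from the same assembly. Domains named were the 10 longest, the 5 longest of each of 3 patterns (kept throughout, lost on the successful route, lost at day 3), the 10 genes with the most domain sequence and members of the gene lists. Some genes that met these rules are not reported here. Members, lists and rules were chosen with earlier results of these data known. With 1 library per group, no test was made, and intervals are 95% Wilson intervals. Depth ranged from 13.2 to 91.8 M tags, and a missing peak means that the calling limits were not passed at that depth. Interval code was tested on simulated data. Analyses used Python 3.11.15, pandas 2.3.3, numpy 2.4.6 and scipy 1.17.1. Alternatives were covered shares of 0.25 and 0.75, 25637 top-scoring peaks per library, a fold of at least 4, domains of 15 kb or more, gaps of 1 kb bridged, domains kept in MEF, and all annotated genes.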

Additional observations from a re-analysis of the deposited data

How the results depend on the processing

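The mean route difference kept its sign under every alternative, between -30.6 and -15.5 points, and 78.6 and 81.4% of domain base pairs lay in protein-coding genes in the domains kept in MEF and those of 15 kb or more (82.4% in any annotated gene). Of 58 alternative values, 17 stayed within the interval (or SD) of the value reported and 41 moved outside it. Only the mean route difference could change sign, since all other values are percentages. With a covered share of 0.25, the domains kept were 85% in MEF, 94% in D3, 59.6% in iPSCs, 81% in D16S- and 99.9% in D4, 67.9% broke down earlier on the successful route and H3K36me3 covered 82.3%. With 0.75 these were 18.1% in MEF, 42.9% in D3, 15% in iPSCs, 29.1% in D16S- and 97.6% in D4, 60.8% and 36.1%. At 0.75, D6T- kept more domains than D6T+ (56.5 and 41.5%), as did D9T- and D9T+ (36.6 and 35.6%), so the order of the routes turned on days 6 and 9. With 25637 top-scoring peaks per library the domains kept were 49.8% in MEF, 70.2% in D3, 31.9% in iPSCs, 54.1% in D16S- and 98.6% in D4, and 70% broke down earlier on the successful route. A fold over input of at least 4 left 0.141% in MEF, 41.9% in D3, 0.844% in iPSCs, 33.2% in D16S- and 55.3% in D4, and 66.1% earlier, so comparisons between libraries depend on this limit. In domains of 15 kb or more the values were 60.3% in MEF, 79.8% in D3 and 34.8% in iPSCs, 79.4% earlier, 71.3% under H3K36me3 and 89.1% with H3K4me3. Bridging gaps gave 62.6% in MEF, 83.7% in D3, 42.9% in iPSCs and 65.1% in D16S-. In the domains kept in MEF the values were 84.6% in D3, 42.3% in iPSCs, 66.1% in D16S- and 100% in D4, with 91.4% overlapping H3K4me3. The cause of these shifts was not tested, other than that a higher limit leaves fewer peaks. No paired analysis was possible because each group had 1 library.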

Other observations

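The histone marks of the domains were also followed along the successful route. H3K4me3 overlapped 82.1% of the domains in D0, 67.5% in D3 and 73.6% in D6T-. It overlapped 68.2% in D9T-, then 59.4% in D12S+, 41.5% in D16S+ and 63.3% in iPSCs. In the same order, all D0 peaks had 28.2, 18.6, 22.2, 19.2, 14.9, 8.47 and 16.5%. H3K36me3 covered at least 50% of the domain in 63.7% of domains in D0, 43.9% in D3 and 21.1% in D6T-. D9T- had 54.9%, D12S+ 0 (of 711, upper limit 0.537%), D16S+ 0.141% and iPSCs 0.844%, and all D0 peaks had 22.5, 12.4, 7.42, 22.5, 0.651, 0.999 and 2.3%. The share of H3K36me3 tags in peaks moved with it, at 31.3, 14.1, 7.5, 42.4, 1.07, 1.99 and 2.88%, and its part in the result was not tested.

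A set of 34 domains (4.78%; all D0 peaks 34.2%) was below 50% in every H3.3 library other than D0 and D4, MEF included. D4 was left out of this rule, and it covered most but not all of them to 50%, with 23.7% for Col3a1 and 46.3% for Man2a1. Their hosts included Col3a1, Hspg2 and Notch2, and several genes had more than 1 of them: Fndc3b with 3, Mical2 with 3, Bmp1 and Hspg2 with 2 each. The gene end lay in 26.5% of these domains, compared with 54.7% of all, and their median length was 11.7 kb. H3K4me3 overlapped 58.8% of them, compared with 82.1% of all domains.

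The 7 domains that broke down earlier on the unsuccessful route lay over Itgb1, Map2k1, Slc20a1, Srebf1, Arid3a, Mtap4 and Rbms1. Several calls rested on values just below 50% in D12S-, such as 49.7% for Mtap4, 49.2% for Rbms1 and 48.6% for Srebf1. On day 12 each of the 7 had more cover in D12S- than in D12S+, which had 30.4, 4.57 and 0% of these 3. All 7 overlapped H3K4me3 and were at least 50% covered by H3K36me3 in D0. Map2k1, a kinase of the MAPK cascade, had 46.9% in D16S- and 61.9% in D16S+.

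The domain on chromosome 18 with Mir143 and Mir145, miRNAs of smooth muscle and fibroblasts, had 100% in MEF, 68.9% in D3, 23.2% in D6T- and 9.54% in iPSCs, compared with 66.3 and 56.8% in D6T+ and D9T+ and 27.2 and 16.6% in D12S- and D16S-.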
